A study of Homo sapiens with 4 samples.

Results

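Chromosome ends were examined in OECM1, a long-established line of oral cancer cells, through the ChIP-seq peaks whose summits lay in the first or last 3 Mb of an autosome. The short arms of chromosomes 13, 14, 15, 21 and 22 were left out, so that 39 ends with 117 Mb of sequence remained. Positions alone chose these peaks, and no measured value entered the choice. In all, 736 of the 11483 deposited peaks lay in the ends, and the rest of the autosomes held 10019. By list, the ends held 220 ARID3B peaks in control cells, 294 ARID3B peaks in edited cells, 106 KDM4C peaks in control cells and 116 KDM4C peaks in edited cells. The member nearest to the 3 Mb limit was a KDM4C peak of edited cells on chromosome 3 (11 tags, score 54.1), and the nearest peak outside it was an ARID3B peak of edited cells on chromosome 8 (9 tags, score 52.0).

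Cas9 had been brought into the cells either with a control construct, here called control cells, or directed at ARID3B, here called edited cells. The sample titles call the edited cells a knockdown, whereas the series title speaks of a knockout, and the amount of ARID3B left was not analysed here. Chromatin was pulled down with an ARID3B or a KDM4C antibody, which gave 4 groups of 1 library each. No group had a replicate and no library of input chromatin entered the peak calls, so no difference has a replicate check. The 95% intervals below are exact and cover counting error only, and no test was run.

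The ends of human chromosomes carry telomere repeats, bound by a protective protein complex. Next to them lie subtelomeres, stretches of duplicated sequence that different chromosomes share in part, followed by sequence that on many chromosomes is rich in genes and in G and C. Chromatin near telomeres can carry methylated histone H3 lysines of the silent type. KDM4C is a demethylase that removes methyl groups from such lysines, and ARID3B binds DNA through a domain that prefers AT-rich sequence. Short tags from duplicated sequence are hard to place, and a copy missing from the genome build sends its tags to the copies that are present.

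The libraries held between 16209985 and 24439463 tags after removal of tags at repeated positions, with the edited library below the control library for each antibody. Over all chromosomes, no peak had fewer than 9 tags, and medians were 12 or 14. A peak near the caller's threshold, a score of 50, can therefore pass or fail it through counting error. The score is minus 10 times the log10 of the caller's p-value, and the fold enrichment is the summit over the caller's local background. Both come from the authors' files, within each list, so that unequal values in 2 lists show no change of binding.

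Peaks were denser at the ends than along the rest of the autosomes in every list. The ends make up 4.06% of the autosomal length. They held 7.11% of the autosomal ARID3B peaks of control cells (95% interval 6.23 to 8.07) and 6.42% of those of edited cells (5.73 to 7.17). For KDM4C the shares were 7.90% in control cells (6.52 to 9.48) and 6.66% in edited cells (5.53 to 7.93). Within each antibody the control and edited intervals overlapped.

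In peaks per Mb, the ARID3B lists had 1.88 at the ends against 1.04 elsewhere in control cells, and 2.51 against 1.55 in edited cells. The KDM4C lists had 0.906 against 0.447 in control cells and 0.991 against 0.588 in edited cells. The 2 densities stood at a ratio of 1.81 (control) and 1.62 (edited) in the ARID3B lists and of 2.03 and 1.69 in the KDM4C lists. Chromosome lengths include gaps in the build, which are longer around centromeres. A second count used only windows of 1 Mb that held a peak of any list. It kept 110 of 117 Mb of the ends and 2148 of 2764 Mb of the rest. The ratios were then smaller, at 1.49 and 1.34 for ARID3B and 1.68 and 1.39 for KDM4C. The peaks themselves picked these windows, so sequence without a peak was dropped along with gaps. How far gaps alone lower the ratios was not measured.

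Density was highest in the outermost Mb. Of the end peaks, 55.9% of ARID3B peaks in control cells (49.1 to 62.6) and 55.1% in edited cells (49.2 to 60.9) lay within 1 Mb of the tip. The KDM4C shares were 55.7% (45.7 to 65.3) and 61.2% (51.7 to 70.1). In the outer 0.1 Mb there were 17 and 29 ARID3B peaks, or 4.36 and 7.44 per Mb, and 17 KDM4C peaks in each list, or 4.36 per Mb. Between 2 and 3 Mb from the tip the densities had dropped to 1.15 and 1.28 per Mb for ARID3B and to 0.615 and 0.667 for KDM4C. Of these densities from 2 to 3 Mb, the edited ARID3B density lay below the mean of the rest of the autosomes, and the other 3 lay above it. From 5 to 10 Mb they were 0.954 and 1.47 for ARID3B and 0.262 and 0.487 for KDM4C, each below the mean of the rest of the autosomes. Without the ends 4q and 18p, the 2 with most peaks, the shares within 1 Mb were 49.5% and 50.4% for ARID3B and 51.1% and 57.3% for KDM4C.

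**Figure D1:**
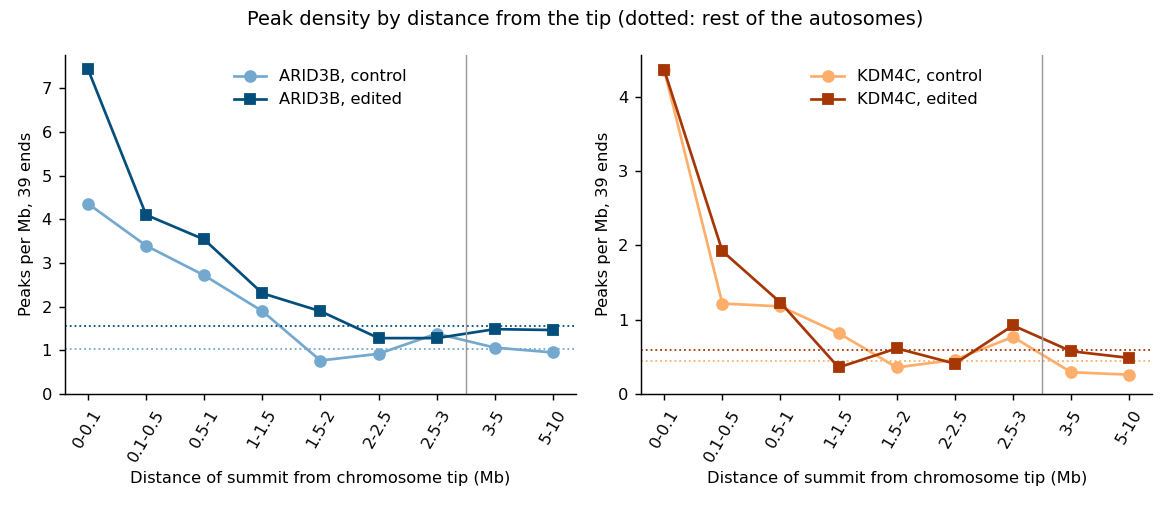
Peaks per Mb (vertical axis) over 39 ends, by distance of the summit from the chromosome tip in Mb (horizontal axis, bins of unequal width), with 1 line per list and a dotted line at the list's mean over the rest of the autosomes. The vertical line marks 3 Mb. All 4 lines are highest in the outer 0.1 Mb, at 4.36 to 7.44 peaks per Mb.

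Some peaks lay at the first bases that the build places at a tip, which on several chromosomes are copies of the telomere repeat. On 5 short arms (1p, 4p, 5p, 7p and 18p) a peak began before 10.1 kb in at least 1 list. The KDM4C lists had such a peak at 5 of these 5 tips in control cells and again at 5 in edited cells. The ARID3B lists had one at 2 in control cells (5p and 18p) and at 2 in edited cells (1p and 5p). These tips were picked out after their values were seen, and the difference between antibodies was not tested. Over all 39 ends, a peak within 12 kb of the tip was found at 4 and 6 ends for ARID3B and at 7 and 6 for KDM4C, with control before edited cells. The edited lists thus had equal numbers by that count, which the rounding of chromosome lengths could change. The count includes the long-arm ends 1q, 10q and 21q, whose distances carry an error because chromosome lengths were rounded to 10 kb. At 1q the ARID3B peak of control cells lay 11968 bp from the rounded end, close to the limit. The comparison of antibodies over all 39 ends therefore stays undecided.

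The tip of 5p was the only one of these 5 called in all 4 lists. Its region, on chromosome 5 from 9944 to 11837 (GRCh37), had 205 ARID3B tags in the control library and 135 in the edited one. With KDM4C it had 243 and 280 tags. The ARID3B count was thus lower in the edited library, which was also the shallower one. The KDM4C count was higher in the edited library, although that library was the shallower one. The peaks at the other 4 tips were small. On chromosome 7 the KDM4C peaks had 12 and 20 tags in control and edited cells, and on chromosome 4 they had 14 and 12. On chromosome 1 the KDM4C peaks had 14 and 20 tags, and the ARID3B peak of edited cells had 11. On chromosome 18 they had 23 and 24 tags, and the ARID3B peak of control cells had 11. These ARID3B counts lie near the smallest count that could be called.

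At the far tip of chromosome 1, the KDM4C peaks ran from 249239891 to 249240349 in control cells (26 tags) and from 249239886 to 249240494 in edited cells (29 tags). By the rounded chromosome lengths, the latter was the edited KDM4C peak nearest to a tip. By the same lengths, in the other 3 lists the peak nearest to a tip lay on 10q, at 3 places that did not overlap. They were from 135522319 to 135522651 for ARID3B in control cells (18 tags), from 135522706 to 135522901 for ARID3B in edited cells (12 tags) and from 135523949 to 135524315 for KDM4C in control cells (15 tags). Their scores were 59.4, 59.5 and 50.7, all close to the threshold. Distances from long-arm tips carry an error, because the chromosome lengths used were rounded to 10 kb.

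The 39 ends differed widely among themselves. No end was empty, and the total over the 4 lists ran from 2 peaks at 18q to 81 at 4q, with a median of 14 and quartiles of 9 and 22. In 853 windows of 3 Mb in the rest of the autosomes that held a peak, the median was 7, with quartiles of 4 and 14 and a maximum of 147. Of the ends, 84.6% lay above the window median, against 47.8% of the windows themselves. Each end had an ARID3B peak in both cells. The KDM4C lists had none at 8 ends (control) and at 7 ends (edited), and 15q, 17q, 18q and 21q had none in either.

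Control and edited counts per end were close for most ends. The median end had 4 ARID3B peaks in the control list and 6 in the edited list, and 2 KDM4C peaks in each. The edited list had more ARID3B peaks at 22 ends and fewer at 9, and in the rest of the autosomes 63.0% of the windows had more. It had more KDM4C peaks at 16 ends and fewer at 12, and 44.4% of the windows had more. These shares of ends, 56.4% and 41.0%, lay near those of the windows. Long-arm ends had 6.18 and 7.73 ARID3B peaks on average in control and edited cells. Short-arm ends had 4.94 and 7.29.

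**Figure D2:**
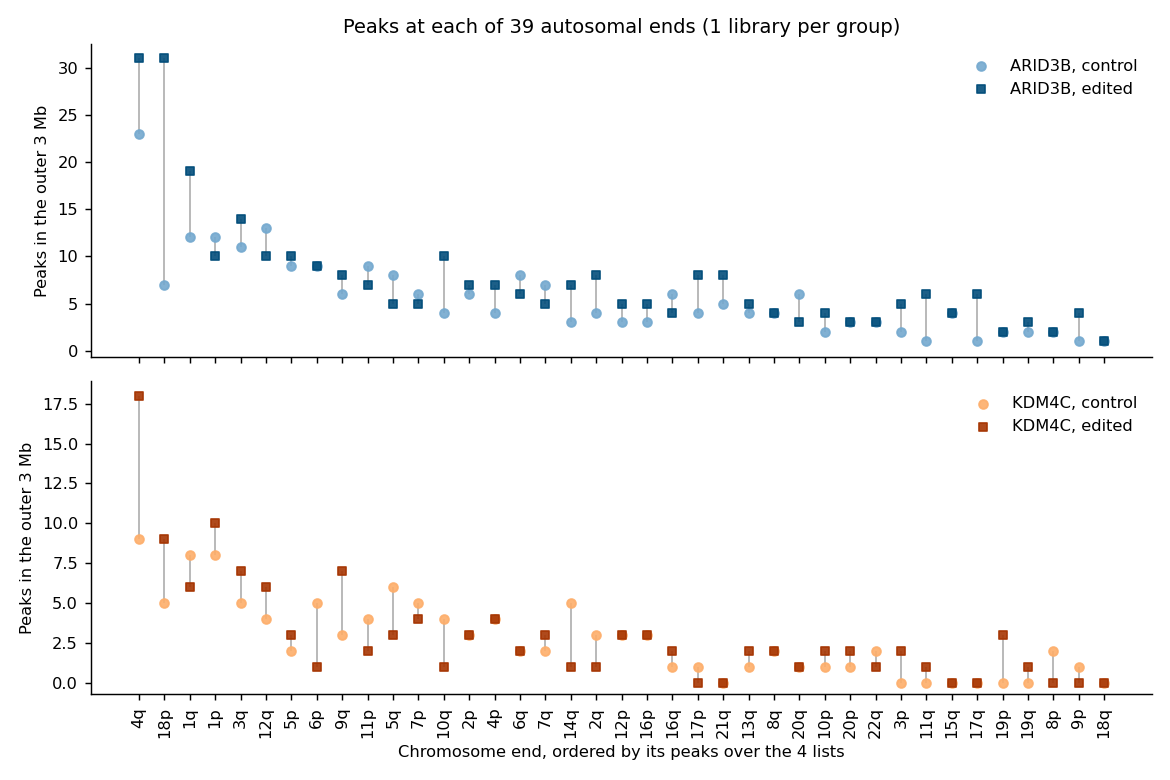
Number of peaks in the outer 3 Mb (vertical axes) at each of 39 chromosome ends (horizontal axis, ordered by the total over the 4 lists), with ARID3B above and KDM4C below, circles for control and squares for edited cells. Each grey line joins the 2 counts of an end, and where counts are equal the square covers the circle. The end 4q leads with 81 peaks in all, and 18p has 7 ARID3B peaks in control and 31 in edited cells.

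The end 4q held 11% of all end peaks. It had 23 and 31 ARID3B peaks in control and edited cells and 9 and 18 KDM4C peaks. The edited count was the higher one with both antibodies, but the ratios of 1.35 (0.761 to 2.42) and 2.00 (0.853 to 5.05) had intervals that included 1. All but 1 of its 81 peaks lay in a single stretch of 853 kb, on chromosome 4 from 190191411 to 191044147. The stretch from there to the 3 Mb limit held 1 KDM4C peak of edited cells. Merged by overlap, the peaks of 4q formed 51 regions, of which 34 were called in 1 list and 3 in all 4. Of the 853 windows elsewhere, 1.29% held as many peaks as 4q.

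Inside that stretch, 3 places had a peak in all 4 lists, which are given here after their values were seen. A region on chromosome 4 from 190802101 to 190802833 had 42 and 46 ARID3B tags (control and edited) and 46 and 27 KDM4C tags. Another, from 190200594 to 190201174, had 26 and 43 ARID3B tags and 24 and 31 KDM4C tags. A neighbour of it, from 190197909 to 190198140, had 15 and 14 ARID3B tags and 19 and 12 KDM4C tags. Over all of 4q, the median local background was 1.59 (control) and 1.94 (edited) times the genome mean for ARID3B and 1.71 and 2.32 for KDM4C, and so was higher in both edited lists. Its part in the counts was not tested.

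Control and edited cells differed most in their number of ARID3B peaks at 18p. ARID3B peaks numbered 7 in the control list and 31 in the edited list, 4.43 times as many (1.91 to 11.9), and over the other ends together the factor was 1.23. KDM4C peaks numbered 5 and 9, a factor of 1.80 (0.542 to 6.84) with an interval that included 1. Of 28 ends with at least 8 ARID3B peaks, 18p was the only one with an interval above the ratio of the other ends, and none lay below it. Among windows elsewhere with at least 8 ARID3B peaks, 3.80% had an interval above the overall ratio and 4.43% below it. A count of 1 in 28 lies near that background. Of 10 ends with at least 8 KDM4C peaks none lay above or below, where 2.90% of the windows did in each direction.

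Unlike those of 4q, the peaks of 18p lay at scattered places. They formed 47 regions, and 45 of these (95.7%) were called in 1 list only, 30 of them in the edited ARID3B list. The edited ARID3B peaks numbered 14 in the outer Mb, 11 in the next and 6 in the innermost, where the control list had 6, 1 and 0. Further in, from 3 to 15 Mb, chromosome 18 had 6 and 36 ARID3B peaks and 1 and 13 KDM4C peaks, so that the end did not stand apart from the arm behind it. The median local background at the 18p peaks was 1.33 (control) and 2.02 (edited) times the genome mean for ARID3B and 1.0 and 1.38 for KDM4C. It was higher in the edited list with each antibody, and its part in the peak counts was not tested.

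One region of 18p held a large part of all tags at chromosome ends. On chromosome 18 from 105590 to 111863, it had 2396 and 2684 ARID3B tags (control and edited) and 2005 and 2265 KDM4C tags. That was 25.8% and 26.4% of the tags in ARID3B end peaks and 37.3% and 39.1% of those in KDM4C end peaks. It was also the widest of all end regions, at 6274 bp, and it is named here after its values were seen. Its fold enrichments were 5.86 and 4.89 for ARID3B and 6.05 and 4.89 for KDM4C, beside a local background that was 27.4 and 37.2 times the genome mean for ARID3B and 27.4 and 39.8 times for KDM4C. The 4 lists thus showed the same block with each antibody and in both cells.

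**Figure D3:**
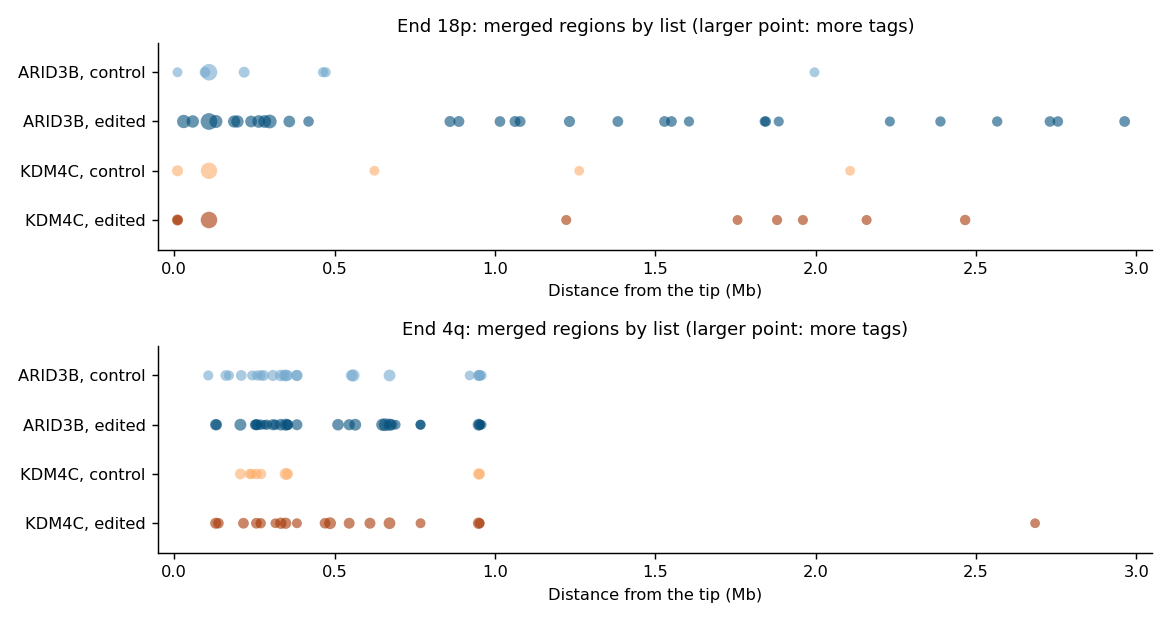
Merged regions at the ends 18p (above) and 4q (below), by distance from the tip in Mb (horizontal axis), with a row for each list and points that grow with the number of tags. At 18p the 31 edited ARID3B peaks are spread over 3 Mb, and at 4q all but 1 peak lies in the outer Mb.

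The next ends by number of peaks were 1q, 1p, 3q and 12q. The end 1q had 12 and 19 ARID3B peaks in control and edited cells and 8 and 6 KDM4C peaks. At 1p the counts were 12 and 10 for ARID3B and 8 and 10 for KDM4C. The end 3q had 11 and 14 ARID3B peaks and 5 and 7 KDM4C peaks, and 12q had 13 and 10 ARID3B peaks and 4 and 6 KDM4C peaks. None of these ratios had an interval that left out 1. Of the 20 regions of 1p, 10 were called in more than 1 list and 4 in all 4, whereas 29 of the 36 regions of 1q were called in 1 list. At 1p the median local background was 2.30 and 2.24 times the genome mean for ARID3B and 2.12 and 3.22 times for KDM4C.

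At the other end of the order lay 18q, with 2 peaks that formed a single region. It was called with ARID3B in both cells, on chromosome 18 from 77772965 to 77773089, with 12 tags in the control library and 16 in the edited one, and KDM4C had no peak there. Further in, from 66000001 to 75000000, chromosome 18 had no peak in any list, so the low count was not particular to the end. The ends 8p, 9p and 19q had 6 peaks each, and 17p had 12 ARID3B peaks but 1 KDM4C peak. At 14q the 16 peaks of the 4 lists formed 16 regions, so that no place was called again, and the same held for the 13 peaks of 21q, all of ARID3B. No place was called again at 8p, 9p, 11q, 15q, 17q, 19p and 20p either, which had fewer peaks. At 3q, 8 of 23 regions were called in more than 1 list.

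Peaks at the ends were wider and scored higher than those elsewhere. The median width was 345 bp against 287 bp for ARID3B in control cells and 286 against 249 in edited cells, and 295 against 267 and 364.5 against 287 for KDM4C. Median tag counts were 18 against 14 and 14 against 12 for ARID3B, and 16.5 against 14 and 18.5 against 12 for KDM4C. Median fold enrichment was slightly lower at the ends in every list, for example 8.47 against 8.72 for ARID3B in control cells. The median local background was higher in every list. It was 1.48 and 1.49 times the genome mean at ARID3B end peaks against 1.23 and 1.19 elsewhere, and 1.49 and 1.65 at KDM4C end peaks against 1.38 and 1.30. The upper part of the range differed for KDM4C in control cells, where 21.9% of end peaks (14.4 to 31.0) but 33.0% of the others had a background over 2. At peaks with a raised background the fold enrichment understates the number of tags, and a peak's own tags can raise that background.

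A score of at least 100 was reached by 42 of the 220 ARID3B end peaks of control cells (19.1%, 14.1 to 24.9) and 44 of the 294 of edited cells (15%, 11.1 to 19.6). Over all autosomes the shares were 11.1% and 8.59%. For KDM4C, 32 of 106 (30.2%, 21.7 to 39.9) and 32 of 116 (27.6%, 19.7 to 36.7) did, where 20.7% and 15.1% did over all autosomes. The intervals at the ends lay above the autosomal value in each list.

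The comparison of control with edited cells asks which peaks differed once ARID3B was edited. Of the 220 ARID3B end peaks of control cells, 75 overlapped an ARID3B peak of edited cells by at least 1 bp, or 34.1% (27.9 to 40.8). Over all autosomes the share was 22.8%. Of the 106 KDM4C end peaks of control cells, 45 had an edited counterpart, or 42.5% (32.9 to 52.4), against 34.0% over all autosomes. In the other direction 79 of 294 edited ARID3B end peaks had a control counterpart (26.9%, 21.9 to 32.3), where 15.7% did over all autosomes. For KDM4C 48 of 116 did (41.4%, 32.3 to 50.9), where 25.0% did.

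Much of this went with the score. Of the ARID3B end peaks of control cells that scored under 60, 8 of 101 were called again (7.92%, 3.48 to 15), against 6.85% in the rest of the autosomes. At scores from 60 to 100, 28 of 77 were (36.4%, 25.7 to 48.1), against 26.9%. At 100 or more, 39 of 42 were (92.9%, 80.5 to 98.5), against 93.7%. KDM4C end peaks gave 1 of 43, 14 of 31 and 30 of 32 in the same classes, or 2.33%, 45.2% and 93.8%, against 7.64%, 40.6% and 95.1% elsewhere. Within these classes each end interval included the value of the rest of the autosomes. Without windows of 1 Mb that held at least 10 peaks of each list, the rest had 23.3% in the ARID3B class from 60 to 100, below the end interval. Without 4q and 18p the ends had 20 of 64 in that class (31.25%, 20.2 to 44.1), and this interval included 23.3%.

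Among the edited ARID3B peaks the weak ones had a control counterpart more often at the ends, at 16 of 164 (9.76%, 5.68 to 15.4) against 3.7% (3.02 to 4.48) for scores under 60. Without 4q and 18p the share was 8.4% (4.27 to 14.5). The difference was not tested, since peaks of 1 library are not replicates and neighbouring peaks can share their source.

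About as many KDM4C end peaks overlapped an ARID3B peak as did not, in both kinds of cells. In control cells an ARID3B peak overlapped 53 of the 106 KDM4C end peaks, or 50% (40.1 to 59.9), against 37.0% over all autosomes. In edited cells it was 57 of 116, or 49.1% (39.7 to 58.6), against 32.1%. The shares of control and edited cells differed by less than their intervals. Most ARID3B end peaks had no KDM4C peak, and 54 of 220 did in control cells (24.5%, 19 to 30.8) and 57 of 294 in edited cells (19.4%, 15 to 24.4), against 15.8% and 12.7% over all autosomes. At scores of 100 or more the KDM4C share was 31 of 32 in control cells (96.9%) and 28 of 32 in edited cells (87.5%, 71.0 to 96.5), against 93.5% and 97.4% elsewhere. The edited share at the ends thus lay below that elsewhere, and it was 26 of 29 (89.7%, 72.6 to 97.8) without 4q and 18p. At scores under 60 it was 6 of 43 (14%, 5.30 to 27.9) and 11 of 46 (23.9%, 12.6 to 38.8), against 10.6% and 9.90% elsewhere. Without 4q and 18p the latter share dropped to 4 of 32 (12.5%, 3.51 to 29.0), so that its excess rested on those ends.

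**Figure D4:**
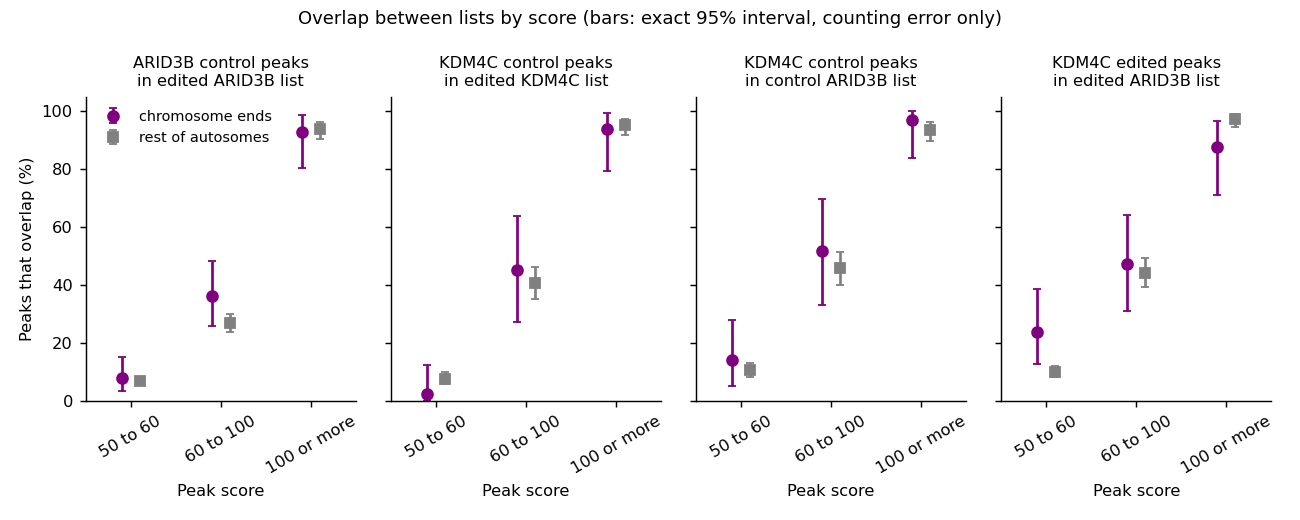
Percent of peaks (vertical axes) that overlap a peak of a second list by at least 1 bp, in 3 classes of peak score (horizontal axes), for chromosome ends (circles) and the rest of the autosomes (squares), with exact 95% intervals for counting error. In all 4 panels the share rises with the score, and it reaches 87.5% to 96.9% at the ends for scores of 100 or more.

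Merged by overlap, the end peaks formed 522 regions. Of these, 417 (79.9%, 76.2 to 83.2) were called in 1 list, against 89.2% of all autosomal regions. All 4 lists had a peak in 33 of them (6.32%, 4.39 to 8.76), against 3.98% of all autosomal regions. Only the ARID3B antibody called 350 regions, only the KDM4C antibody 91, and both called 81. This split by antibody was not counted for the rest of the autosomes. Of the regions found in 1 list, 197 were in the edited ARID3B list, 135 in the control ARID3B list, 47 in the edited KDM4C list and 38 in the control KDM4C list. In that order they made up 37.7%, 25.9%, 9.004% and 7.28% of all end regions. In the rest of the autosomes the shares were 42.3%, 26.3%, 12.9% and 8.34%. The 33 regions of all 4 lists lay at 21 of the 39 ends, with 4 at 1p and 3 each at 4q and 12q, and 22 of the 33 lay in the outer Mb. The median peak in them had 43 and 46 tags for ARID3B and 37 and 32 for KDM4C, whereas the median peak of a region found in 1 list had 15 and 13 and 11.5 and 12. Local background differed alongside, with medians of 2.17 and 2.30 for ARID3B and 1.93 and 2.60 for KDM4C against 1.33 and 1.36 and 1.29 and 1.35, and its part in the tag counts was not tested. The 33 regions held 59.2% and 53.3% of the tags in ARID3B end peaks and 77.3% and 75.9% of those in KDM4C end peaks, in control and edited cells.

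The region with the highest fold enrichment of all end regions lay on chromosome 3 from 196625495 to 196625957, about 1394 kb from the tip of 3q. It had 172 and 177 ARID3B tags (control and edited) and 163 and 155 KDM4C tags. At its summit 144, 142, 140 and 138 tags were stacked, the first pair with ARID3B and the second with KDM4C, control before edited. With at most 1 tag kept per position and strand, the stack cannot exceed 2 fragment lengths, which is 172, 158, 164 and 190 tags. The summits stood at 83.7%, 89.9%, 85.4% and 72.6% of that limit. A difference in signal at this region could therefore be compressed.

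The second region, on chromosome 5 from 178012395 to 178012889, had 59 and 36 ARID3B tags and 37 and 27 KDM4C tags in control and edited cells. Its summit heights were 34 and 18 for ARID3B and 19 and 17 for KDM4C, so that the control ARID3B library was the high one. On chromosome 12 from 2364864 to 2365410, at 12p, there were 42 and 51 ARID3B tags and 36 and 41 KDM4C tags, higher in the edited library each time. A region on chromosome 6 from 170686038 to 170686980 had 64 and 63 ARID3B tags and 45 and 38 KDM4C tags. One on chromosome 2 from 2299184 to 2299605 had 24 and 31 ARID3B tags and 13 and 22 KDM4C tags. One on chromosome 8 from 144751529 to 144751939 had 21 and 32 ARID3B tags and 21 and 22 KDM4C tags. At the end 1p, a region from 726715 to 727191 had 48 and 46 ARID3B tags and 27 and 22 KDM4C tags. The direction was not the same from region to region, and counts of this size carry a counting error of several tags.

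Nearest to a tip among the leading regions was one on chromosome 10 from 135499284 to 135501762, 28.9 kb from the rounded end of the chromosome. It had 525 and 592 ARID3B tags and 395 and 471 KDM4C tags, with summit heights of 72 and 75 for ARID3B and 71.4 and 73 for KDM4C. The edited libraries had more tags there with both antibodies in spite of their lower depth. Its local background was 7.58 and 10.2 times the genome mean for ARID3B and 7.19 and 9.94 times for KDM4C. On chromosome 7, from 20195 to 20620 and so 20.4 kb from the tip, a smaller region, named after its values were seen, had 27 and 25 ARID3B tags and 20 and 16 KDM4C tags. The last of the leading regions were a pair at 12q. One, from 133343788 to 133344098, had 17 and 12 ARID3B tags and 11 and 15 KDM4C tags. The other, from 131961925 to 131962464, had 44 and 30 ARID3B tags and 17 and 18 KDM4C tags.

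Wide regions made up another class, with 12 of the 33 at least 1000 bp wide. They include the blocks at 18p, 10q and 5p, and those given next were picked after their values were seen. At 9q, a region from 141121759 to 141123925 had 189 and 104 ARID3B tags and 134 and 96 KDM4C tags. At 16q, one from 90183125 to 90184834 had 165 and 103 ARID3B tags and 95 and 90 KDM4C tags. At 3q, one from 197895275 to 197896382 had 109 and 83 ARID3B tags and 79 and 46 KDM4C tags. These 3 had fewer tags in the edited library with both antibodies. At 1p, one from 2584151 to 2587862 had 319 and 333 ARID3B tags and 143 and 114 KDM4C tags. Over the 12 wide regions the edited ARID3B library had more tags at 3 and fewer at 9, and the edited KDM4C library had more at 6 and fewer at 6. The counts are not divided by depth, and the edited libraries were the shallower ones. Wide regions were not counted apart in the rest of the autosomes. At the 316 regions of all 4 lists there, of any width, edited ARID3B tags were higher at 176 and lower at 127. Edited KDM4C tags were higher there at 142 and lower at 159.

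The 33 regions held 5509 and 5431 ARID3B tags and 4157 and 4391 KDM4C tags in control and edited cells. Without the block at 18p, the other 32 held 3113 and 2747 ARID3B tags and 2152 and 2126 KDM4C tags. Summit heights in both cells were recovered at 32 regions for each antibody. The median ARID3B height was 18 tags in control and 16 in edited cells, with the edited summit higher at 7 regions and lower at 20. For KDM4C the medians were 15 and 14, with 14 regions higher and 14 lower. The median log2 ratio of undivided heights, edited over control, was -0.12 for ARID3B and 0.00 for KDM4C. At the 316 regions of all 4 lists in the rest of the autosomes it was 0.00 and 0.06. Among the 287 of these with ARID3B heights, the edited summit was higher at 135 and lower at 126. Among the 299 with KDM4C heights, it was higher at 160 and lower at 114. Divided by filtered tags, the medians at the ends were 0.10 and 0.35, with 19 and 30 of the 32 regions higher in edited cells, against 0.23 and 0.41 elsewhere. Of the regions elsewhere, 227 of 287 (ARID3B) and 267 of 299 (KDM4C) were higher in edited cells by that measure. The direction of the ARID3B median thus turned with the division by depth, and regions are not replicates of the cells.

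**Figure D5:**
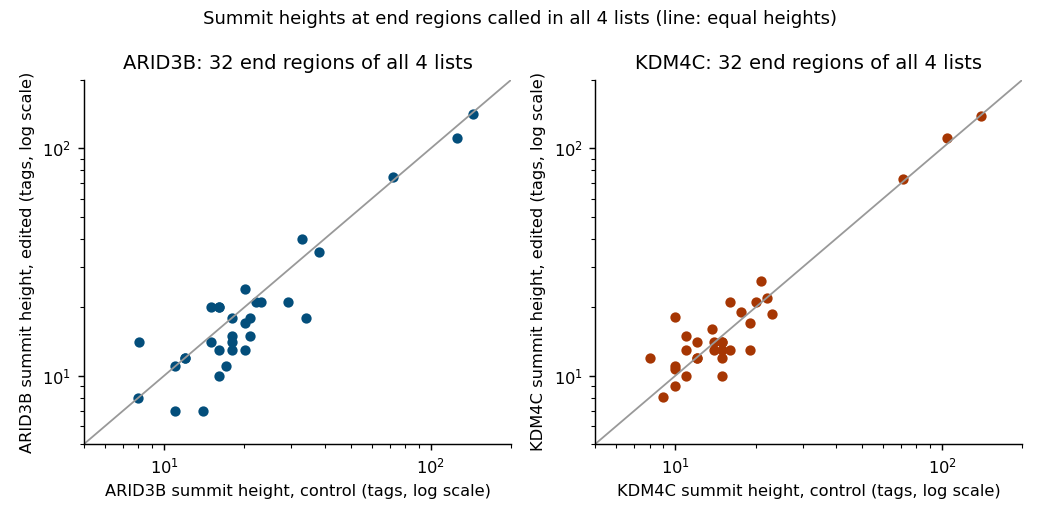
Summit height in edited cells (vertical axes) against control cells (horizontal axes), in tags on log scales, at 32 end regions called in all 4 lists, for ARID3B and KDM4C. The line marks equal heights. For ARID3B 20 of the 32 regions lie below it, and for KDM4C 14 lie below and 14 above.

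Most end regions that 1 of the 2 cells lacked for an antibody lay near the threshold. ARID3B had 145 such regions in the control list and 215 in the edited list, with median scores of 56.3 and 55.7, and 3 and 4 of them scored 100 or more. KDM4C had 60 and 67, with median scores of 55.4 and 56.7, and 2 and 3 of them scored 100 or more. Of these regions, 135 and 197 for ARID3B and 38 and 47 for KDM4C were called in no other list. Their shares of all end regions, given above, did not exceed those in the rest of the autosomes. Regions with a score of 100 or more, the exceptions, were not counted there. Wide regions of low fold enrichment were among these exceptions, and the 3 given next were chosen after their values were seen. On chromosome 14 from 106159908 to 106161704, the control ARID3B list had 116 tags (score 137) and no other list had a peak. On chromosome 18 from 27807 to 29652, the edited ARID3B list had 127 tags (score 103) and no other list had a peak. On chromosome 2 from 243153611 to 243154948, the control KDM4C list had 77 tags (score 145), ARID3B had 80 and 58, and the edited KDM4C list had no peak.

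Ranked by fold enrichment, the leading ARID3B peaks of control cells with no edited counterpart had fold enrichments from 11.6 to 12.9. The first lay on chromosome 2 from 2277353 to 2277571 and had 13 tags. The next, on chromosome 4 from 190198213 to 190198498, had 21 tags. It lay between 2 regions of the 4q stretch, given above, that were called in all 4 lists. The third lay on chromosome 20 from 62034897 to 62035159, with 14 tags, and was called in no other list. The fourth, on chromosome 12 from 95231 to 95795, had 20 tags, and the KDM4C antibody called it in both cells, with 27 and 34 tags.

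Leading ARID3B peaks of edited cells with no control counterpart had fold enrichments from 14.1 to 20.9. The first, on chromosome 19 from 56181688 to 56182026, had 19 tags, and the KDM4C antibody called it in edited cells as well, with 11 tags. The others were called in that list alone. They lay on chromosome 11 from 134435372 to 134435538 (13 tags), on chromosome 3 from 330132 to 330328 (10 tags) and on chromosome 19 from 57529233 to 57529487 (11 tags).

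KDM4C peaks of control cells with no edited counterpart were led by chromosome 10 from 134177754 to 134178092 (11 tags), where ARID3B had 14 tags in edited cells. Those that followed, on chromosomes 12, 13 and 2, had 9, 9 and 13 tags and were called in no other list. KDM4C peaks of edited cells with no control counterpart were led by chromosome 7 from 157943881 to 157944336, with 14 tags. ARID3B had 19 tags there in the control library and 19 in the edited one. On chromosome 13 from 113916971 to 113917527, the edited KDM4C list had 17 tags and the ARID3B lists had 35 and 30. The 2 remaining ones, at 18p and 4q, had 10 and 19 tags and were called in no other list. The one at 18p, from 10397 to 10573, lay just beside the tip region from 9960 to 10334, which both KDM4C lists called.

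The number of ARID3B end peaks was 1.34 times as high in edited as in control cells (1.12 to 1.60), and the ratio in the rest of the autosomes was 1.49 (1.42 to 1.56). For KDM4C the ratio at the ends was 1.09 (0.834 to 1.44), against 1.32 (1.22 to 1.42) elsewhere. The intervals of ends and rest overlapped for both antibodies. At a score of at least 60 there were 119 and 130 ARID3B end peaks, a ratio of 1.09 (0.845 to 1.41), and at 100 or more 42 and 44. In the rest of the autosomes the ratio at a score of at least 60 was 1.36 (1.26 to 1.46). Without 18p the ratio of all ARID3B end peaks was 1.23 (1.03 to 1.49). Without 4q and 18p the KDM4C ratio was 0.967 (0.715 to 1.31), so that its direction rested on those ends. Per 1000000 filtered tags there were 9.0 (control) and 14.1 (edited) ARID3B end peaks, and 5.13 and 7.16 KDM4C end peaks.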

How the data were processed

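Peaks were called by the authors with MACS 1.4.2 in each library alone, per the file headers, without a control file, at p-values up to 1e-05, with a genome size of 2.7 Gb, background read over 10 kb and at most 1 tag at a position. The submitters' processing notes list GRCh37, bcl2fastq 2.1.5 and BWA 0.7.12. The deposited tag counts are whole, not normalized. The deposited score is minus 10 times log10 of the p-value. The deposited fold enrichment is a ratio to local background.

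Groups came from sample titles. A peak belonged to an end if its summit did, with chromosome lengths rounded to 10 kb. Sharing 1 bp or more counted as overlap, in Python 3.11.15 with SciPy 1.17.1. Shares have Clopper-Pearson 95% intervals. Ratios have binomial intervals of the edited count given the sum. Local background was solved from each tag count and score by the Poisson formula, with lengths of at least 2 fragments, and summit height from it and the fold. Heights came out whole within 0.05 for 93.5% to 97.2% of peaks per library, and 1.13% to 2.01% of peaks gave none. The steps were tested on simulated data. Regions were named by their lowest fold enrichment over the lists among those in all 4 lists (up to 10) or in 1 list of a pair (4 each), and the peak nearest to a tip in each list. Ends were named as the 6 with most peaks, those with none, and those with at least 8 peaks of an antibody whose interval left out the ratio of the other ends. Members and lists were chosen with earlier results of these data known. No genome of build GRCh37 was used, so no gene or sequence is given.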

Additional observations from a re-analysis of the deposited data

Results flagged for a closer look

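At 3 of the 6 ends with most peaks the antibodies went opposite ways between control and edited cells, which was not tested. At 1q the ratio of edited to control peaks was 1.58 (0.730 to 3.58) for ARID3B and 0.75 (0.214 to 2.46) for KDM4C. At 1p the ratios were 0.833 (0.323 to 2.1) and 1.25 (0.444 to 3.64). At 12q they were 0.769 (0.302 to 1.90) and 1.5 (0.356 to 7.23). Each interval included 1. Over all 39 ends the antibodies went opposite ways at 10 and the same way at 13, and at 16 at least 1 of them had equal counts.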

How the results depend on the processing

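With 1 library per group, no replicate could be left out. No paired analysis was possible because each group has 1 library. Sets of 4 values give ARID3B before KDM4C, each with control before edited cells. The share of autosomal peaks in the ends was 9.26%, 7.60%, 10.2% and 9.92% at a score of at least 60 and 12.2%, 11.2%, 11.5% and 12.2% at 100 or more. With ends of 1 Mb it was 3.97%, 3.54%, 4.40% and 4.08%, and with 5 Mb 9.79%, 8.96%, 9.62% and 9.24%, as the width itself sets it. Without 4q and 18p, an alternative chosen after seeing the data, it was 6.2%, 5.14%, 6.93% and 5.19%. Without windows of 1 Mb that held at least 10 peaks of each list, the KDM4C control share was 9.48%. The ARID3B ratio of edited to control end peaks was 1.09 and 1.05 at scores of 60 and 100, both of which lie below its interval. With the threshold raised in both lists, ARID3B control peaks called again were 47.1% and 64.3% at scores of 60 and 100, and KDM4C control peaks 66.7% and 71.9%, or 54.2% with ends of 1 Mb. KDM4C peaks that overlapped ARID3B were 65.1% and 75% in control cells at 60 and 100, and 71.9% in edited cells at 100. Regions of all 4 lists numbered 16 at a score of 100. The other alternatives stayed within the interval of the value reported or, for the count of regions, within 1.5 times, among them an overlap of at least 50% of the shorter peak and membership by any base. Without 4q and 18p the KDM4C ratio was 0.967, against 1.09, and its direction at the ends is not settled at this depth.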
